A study of Arabidopsis thaliana with 21 samples.

Results

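ASIL1 (AT1G54060) encodes a plant-specific trihelix transcription factor of Arabidopsis thaliana. Its loss was examined in 3 libraries of whole asil1-1 seedlings in the Columbia-0 ecotype, against 3 libraries of Col-0 wild-type seedlings. These 6 libraries were taken by their titles from a series of 21 that holds 7 groups of 3. Seedlings were 14 days old, raised at 22 °C in 16 h days on sucrose-free MS plates, and their polyA RNA was sequenced. A second pair of groups, asil1-1 asil2-1 against asil2-1, both labelled Columbia-0, carries the same asil1-1 allele beside asil2-1, an allele of the related gene ASIL2. It shares no library with the first pair. Both groups of that pair carry asil2-1. The other groups enter the fit across all 21 libraries and the mitochondrial sums below. They are asil1-1 asil2-2, labelled with both ecotypes, asil2-2 in Landsberg erecta, and Ler, the Landsberg erecta wild type. The labels give a single asil1-1 line, do not describe its lesion and call the libraries biological replicates. Whole seedlings mix shoots and roots.

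Trihelix factors bind GT-rich promoter elements. ASIL1 is known as a repressor that binds a GT-box in the promoter of a 2S albumin gene and helps to keep seed maturation genes silent after germination. Seed maturation genes encode storage proteins, oil body proteins and late embryogenesis abundant (LEA) proteins, and they are switched on in the embryo by the regulators LEC1, LEC2, FUS3 and ABI3. The comparison asks which transcripts depend on ASIL1 once the seedling is established.

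ASIL1 transcript was low in every asil1-1 library. It measured 5.06, 4.47 and 4.97 CPM (read counts scaled to library size, with TMM factors between libraries) in asil1-1, against 35.0, 32.6 and 33.3 CPM in Col-0. The groups did not overlap, and the level was 6.94-fold lower in asil1-1 (log2 fold change -2.80 ± 0.15 SE, adjusted p = 8.21e-11). The transcript was reduced and not absent. ASIL2 (AT3G14180), a close homologue of ASIL1, measured 50.9, 58.0 and 53.5 CPM in asil1-1, against 32.7, 33.2 and 48.5 CPM in Col-0. Its libraries did not overlap, but the difference did not pass the threshold of 0.05 (log2 0.51 ± 0.20, adjusted p = 0.0834). ASIL2 averaged 168 ± 32.5 CPM in asil1-1 asil2-1 and 435 ± 54.5 CPM in asil2-1, against 38.1 ± 8.97 CPM in Col-0 (SD, n = 3 each). The libraries labelled asil2-1 thus held more ASIL2 reads than the wild type, which goes against a loss of its transcript. The lesion is not described, so this level does not check the label. Among the 10 tested loci on each side of ASIL1 on chromosome 1, 3 of 20 fell and 0 rose. These were ESP, the epithiospecifier protein of glucosinolate breakdown (-1.05 ± 0.20, adjusted p = 0.00153), GLL22, a GDSL lipase-like gene (-2.88 ± 0.62, adjusted p = 0.00665), and AT1G54095 (-2.30 ± 0.75, adjusted p = 0.0380). UBP1A, the next tested locus after ASIL1, had a log2 fold change of -0.01 ± 0.08.

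Of 19589 genes tested, 1746 (8.91%) were higher in asil1-1 and 1636 (8.35%) were lower, at an adjusted p under 0.05. The directions differed in size. Only 152 of the increases reached 2-fold, with a median log2 fold change of 0.50, against 1034 of the decreases, with a median of -1.30. In 15 of the lowered genes no asil1-1 library had a count. The median over all tested genes was 0.03.

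Root markers and transcript length differed between the asil1-1 and Col-0 libraries. Of 17 tested root cell type markers 10 fell and 1 rose, with a median log2 fold change of -2.25. The summed level of the 21 root markers listed in the files was 645, 593 and 814 CPM in asil1-1, against 1190, 1567 and 946 CPM in Col-0. Col-0 replicate 3 thus lay between the asil1-1 libraries and the other Col-0 libraries. CASP5 had no count in Col-0, and no root marker was at 0 in all asil1-1 libraries. In whole seedlings, fewer root cells and less RNA per root cell cannot be told apart. All 16 leaf and shoot markers were detected in both groups. Their summed level was 484 to 550 CPM in asil1-1 and 517 to 534 CPM in Col-0, and 0 of 16 passed the test. Transcript length moved too: transcripts over 4000 nt had a median log2 fold change of 0.33, against -0.12 for those of at most 800 nt. Neither shift was seen in asil1-1 asil2-1 against asil2-1. The length medians were -0.04 and 0.11 in that pair, in the same order. Of the 17 root markers 0 were higher and 0 lower there, with a median of -0.13, and of all genes 3.04% were lower. When Col-0 was represented by replicate 3 alone, 154 genes were higher (0.764% of those tested) and 48 were lower (0.238%). The 1746 increases had a median log2 fold change of 0.45 in that fit, and the 1636 decreases one of -0.87. Col-0 replicate 3 is also in the main comparison, where most of these genes did not overlap between groups. Their sign in that fit was thus largely set in advance. This fit assumes that the lone library varies like the other groups. It does not lessen the length shift: transcripts over 4000 nt had a median of 0.45 there, and those of at most 800 nt -0.19. With the root marker score in the model 343 genes (1.75%) were higher and 158 (0.807%) lower. With transcript length corrected as well, 289 (1.48%) were higher and 123 (0.628%) lower, among them 262 of the increases and 87 of the decreases.

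Seed maturation genes had few or no counts in either group, apart from RAB18, M17 and OLEO4. Of 21 genes for storage proteins, oil body proteins and LEA proteins, 16 were listed in the files and 4 had enough counts to be tested. None of these 4 passed the threshold. The cruciferin gene CRU3, the albumin gene SESA2, the caleosin gene ATS1, the LEA gene EM1 and the peroxiredoxin gene PER1 had no count in any of the 6 libraries. CRA1, another cruciferin gene, measured 0, 0 and 0.134 CPM in asil1-1, against 0, 0.189 and 0 CPM in Col-0. RAB18, a dehydrin gene that abscisic acid also induces in vegetative tissue, measured 27.7, 38.1 and 33.8 CPM in asil1-1, against 15.0, 23.1 and 36.2 CPM in Col-0. Its libraries overlapped (log2 0.41 ± 0.38, adjusted p = 0.493). The summed level of the 16 listed seed genes was 39.6, 47.3 and 51.3 CPM in asil1-1, against 24.9, 32.2 and 50.1 CPM in Col-0, and most of it was RAB18 and M17. M17, a LEA gene, lay between 7.23 and 15.6 CPM in asil1-1, against 5.86 to 12.4 CPM in Col-0.

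Regulators of the embryo were not called either. Of 15 listed regulators 6 were tested, and none passed the threshold. FUS3, ABI3 and ABI4 had no count in any of the 6 libraries. LEC2 measured 0.158, 0 and 0 CPM in asil1-1, against 0.12, 0 and 0.759 CPM in Col-0. AGL15, a MADS-box regulator of embryogenesis, had a log2 fold change of -0.64 ± 0.42 (adjusted p = 0.312), and ABI5, a bZIP factor of seed maturation, one of 0.50 ± 0.38 (adjusted p = 0.383). Chromatin factors that keep the embryonic programme off gave 0 calls among 17. BRM, a chromatin-remodelling ATPase, came closest with 0.54 ± 0.21 (adjusted p = 0.0796). A count of 0 here limits the level and does not show absence, since 3 counts correspond to between 0.237 and 0.403 CPM in the asil1-1 libraries.

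The GT-box bound by ASIL1 holds the letters GTGATT. These were searched on both strands in the 250 bases before each RefSeq transcription start of nuclear coding genes (TAIR10.1), with AATCAC as the other strand. Of the tested genes with such a window, 15.7% held at least 1 match. The share was 15.0% for genes higher in asil1-1 and 15.9% for genes lower in asil1-1, so both lay near that of all genes. It was 15.8% for the 304 genes higher in both backgrounds. Of the 14 increases with the smallest p, 3 held a match, namely LETM1, EMB2785 and ELP2. Their windows are shown with SESA3, the 2S albumin gene whose promoter carries the known element and whose transcript is not listed in the files. Capitals mark the letters GTGATT or AATCAC, and each window is written 5′ to 3′ along the gene, at chr3:22102225-22102474 (minus strand) for LETM1, chr2:13218725-13218974 (minus strand) for EMB2785, chr1:18337521-18337770 (minus strand) for ELP2 and chr4:13611546-13611795 (plus strand) for SESA3.
LETM1: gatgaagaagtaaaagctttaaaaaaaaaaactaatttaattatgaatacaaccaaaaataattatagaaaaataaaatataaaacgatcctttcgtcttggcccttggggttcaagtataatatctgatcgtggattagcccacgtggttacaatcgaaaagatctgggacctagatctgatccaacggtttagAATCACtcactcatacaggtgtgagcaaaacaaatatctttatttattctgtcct
EMB2785: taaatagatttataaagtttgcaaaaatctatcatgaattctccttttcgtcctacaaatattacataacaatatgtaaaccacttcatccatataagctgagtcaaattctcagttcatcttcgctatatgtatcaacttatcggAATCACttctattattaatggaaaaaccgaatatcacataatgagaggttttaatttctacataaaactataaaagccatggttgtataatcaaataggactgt
ELP2: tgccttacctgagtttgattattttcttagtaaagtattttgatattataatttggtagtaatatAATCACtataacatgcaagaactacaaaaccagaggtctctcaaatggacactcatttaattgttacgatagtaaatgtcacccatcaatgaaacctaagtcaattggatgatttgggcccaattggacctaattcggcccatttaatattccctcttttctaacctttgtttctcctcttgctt
SESA3: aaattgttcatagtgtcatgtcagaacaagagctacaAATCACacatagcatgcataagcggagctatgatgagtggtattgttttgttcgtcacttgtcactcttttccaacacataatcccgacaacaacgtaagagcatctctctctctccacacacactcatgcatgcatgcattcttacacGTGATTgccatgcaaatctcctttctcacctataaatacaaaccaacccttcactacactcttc
The SESA3 window held 2 matches, starting 213 and 64 bases before the start site. LETM1, EMB2785 and ELP2 held 1 each, starting 55, 104 and 185 bases before it. A match of these letters is a description and not a binding site.

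Most genes for the transcription of the plastid genome were higher in asil1-1. Plastids carry their own genes, which a bacterial-type polymerase with nuclear-encoded sigma factors and associated proteins transcribes, together with a phage-type polymerase. Of 21 tested members of this machinery 15 rose and 0 fell, with a median log2 fold change of 0.41. PTAC12, also known as HEMERA, is a component of the transcriptionally active plastid chromosome. It measured 87.0, 72.7 and 93.1 CPM in asil1-1, against 50.1, 43.4 and 38.2 CPM in Col-0 (0.94 ± 0.13, adjusted p = 7.20e-05). FLN2, a fructokinase-like protein bound to the polymerase, measured 71.0, 55.8 and 68.0 CPM in asil1-1, against 44.8, 36.8 and 38.2 CPM in Col-0 (0.70 ± 0.11, adjusted p = 0.000339). Neither gene overlapped between the groups. PDE312, also known as PTAC10, rose by 0.62 ± 0.11, FLN1 by 0.63 ± 0.12 and the sigma factor gene SIGF by 0.53 ± 0.11 on the log2 scale, with adjusted p between 0.000758 and 0.00253. SCA3, the phage-type polymerase of the plastid, is counted in the polymerase list below and not among the 21. It rose by 0.76 ± 0.11 (adjusted p = 0.000153).

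Genes for aminoacyl-tRNA synthesis in plastids and mitochondria also included many increases. Of 18 tested members 12 rose and 0 fell, and all 18 had a log2 fold change above 0, between 0.16 and 0.91. GATB encodes a subunit of the amidotransferase that makes glutaminyl-tRNA in organelles. It measured 143, 135 and 141 CPM in asil1-1, against 73.2, 69.6 and 80.4 CPM in Col-0, a 1.88-fold difference (0.91 ± 0.09, adjusted p = 1.24e-06). The cysteinyl-tRNA synthetase gene listed as SYCO ARATH rose by 0.77 ± 0.12, the valyl-tRNA synthetase gene EMB2247 by 0.65 ± 0.12, the seryl-tRNA synthetase gene SRS by 0.56 ± 0.10 and the leucyl-tRNA synthetase gene EMB2369 by 0.55 ± 0.11, with adjusted p between 0.000199 and 0.00284.

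The same was seen for protein import into the plastid and proteolysis within it. Of 22 tested members 15 rose and 0 fell, and all 22 lay above 0, with a median of 0.40. FTSH12, an envelope protein of the import motor, measured 159, 149 and 163 CPM in asil1-1, against 62.0, 61.5 and 56.1 CPM in Col-0. The asil1-1 libraries were all more than 2-fold above every Col-0 library (1.39 ± 0.12, adjusted p = 3.89e-07). The translocon genes TIC110, TOC132 and emb1211, the last also known as TIC100, rose by 0.55 ± 0.11, 0.57 ± 0.12 and 0.55 ± 0.10, and CR88, the plastid HSP90, rose by 0.56 ± 0.11.

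Further nuclear genes for organelle proteins were among the increases with the smallest p. LETM1, a protein of the mitochondrial inner membrane, measured 52.1, 55.8 and 59.3 CPM in asil1-1, against 26.8, 25.8 and 26.5 CPM in Col-0 (1.08 ± 0.10, adjusted p = 3.44e-07). BSM, an mTERF-family protein of the plastid, rose by 0.95 ± 0.11 (adjusted p = 1.42e-05). CAF1, a CRS2-associated splicing factor for plastid introns, rose by 0.80 ± 0.10 (adjusted p = 1.59e-05). The gene with the smallest p of all increases was PDE340, named after pigment-defective mutants. Its level was 193, 182 and 198 CPM in asil1-1, against 70.9, 63.9 and 59.5 CPM in Col-0, 2.95-fold higher in asil1-1 (1.56 ± 0.12, adjusted p = 4.57e-08). Genes for photosynthetic proteins included few increases. Of 37 tested nuclear light-harvesting and photosystem genes 14 fell and 0 rose, with a median of -0.34. Of the 37, 0 were lower with the root score or with length and root score together. Of all genes 0.807% and 0.628% were lower in these fits. The medians of the 37 were -0.36 and -0.19 there, and -0.49 against Col-0 replicate 3 alone. The length correction alone gave 11 lower with a median of -0.21. Of 16 tested Rubisco and Calvin cycle genes 1 rose and 0 fell and of 15 chlorophyll synthesis genes 2 rose and 0 fell.

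**Figure D1:**
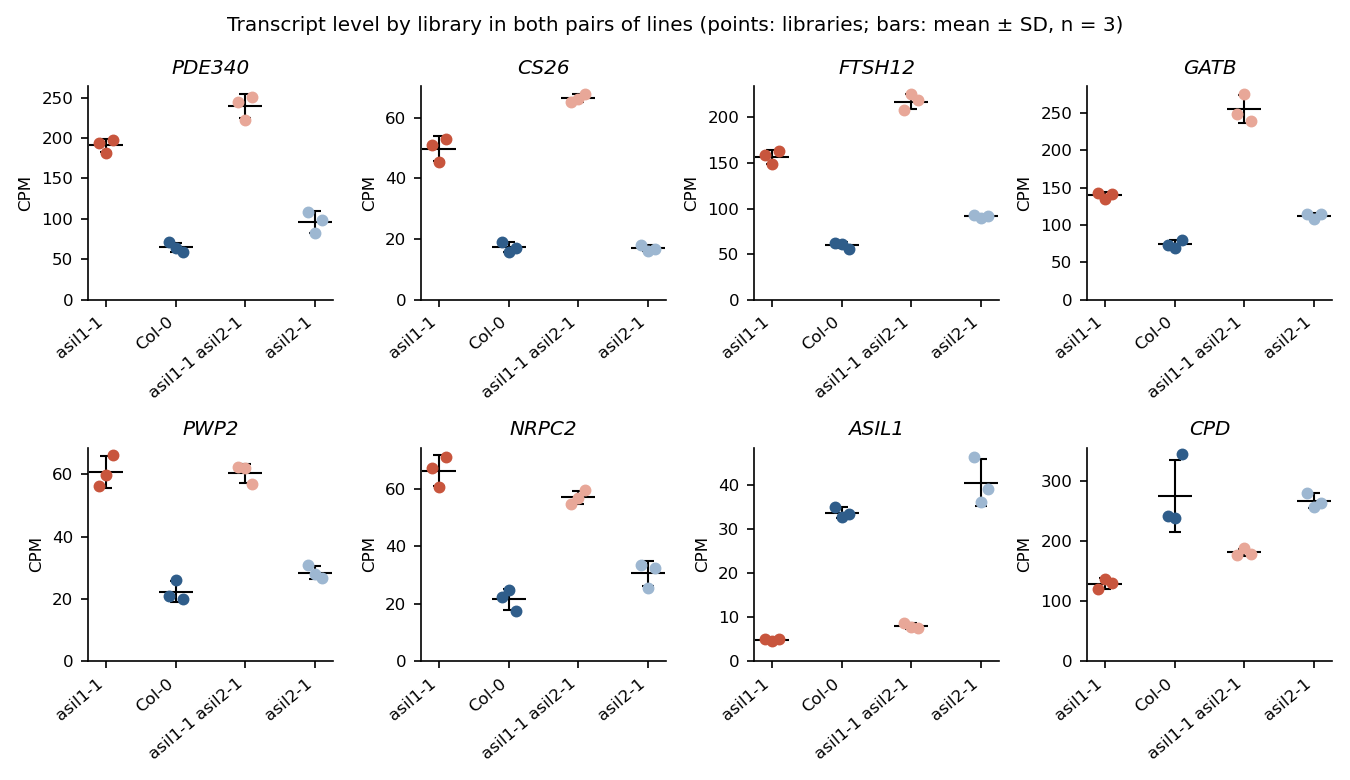
CPM of 8 genes (y axis, from 0) by group (x axis) in asil1-1, Col-0, asil1-1 asil2-1 and asil2-1. Points are libraries and bars are mean ± SD, n = 3; PDE340, CS26, FTSH12, GATB, PWP2 and NRPC2 are higher, and ASIL1 and CPD lower, in the asil1-1 line of each pair, with no overlap between libraries.

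Genes for ribosome assembly in the nucleolus and for RNA polymerases rose in part. Of 27 tested nucleolar ribosome biogenesis genes 9 rose and 0 fell, with a median of 0.29. PWP2, a subunit of the small-subunit processome, measured 56.3, 59.8 and 66.3 CPM in asil1-1, against 21.1, 26.1 and 19.8 CPM in Col-0, 2.71-fold higher in asil1-1 (1.44 ± 0.11, adjusted p = 4.91e-08). MTR4, a helicase of rRNA processing, rose by 0.66 ± 0.11, TOZ, another processome protein, by 0.58 ± 0.11, and RH36, a DEAD-box helicase, by 0.74 ± 0.13. Of 13 tested genes for the ribosomal proteins themselves 1 rose and 0 fell. Only 13 of the 18 listed ribosomal protein genes matched their locus in the gene table.

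In a list of 10 RNA polymerase genes 4 rose and 0 fell, with a median log2 fold change of 0.42. The list holds large subunits of the nuclear polymerases and SCA3, the phage-type polymerase of the plastid. These are long transcripts, and the median was 0.05 after the length correction. NRPC2, the second subunit of RNA polymerase III, measured 67.4, 60.5 and 71.1 CPM in asil1-1, against 22.4, 24.7 and 17.6 CPM in Col-0 (1.62 ± 0.13, adjusted p = 4.91e-08). It was 3.07-fold higher in asil1-1. Both large subunits of RNA polymerase I rose. NRPA1 measured 60.6, 59.0 and 60.8 CPM in asil1-1, against 32.0, 33.0 and 26.0 CPM in Col-0 (0.99 ± 0.13, adjusted p = 8.09e-05), and NRPA2 64.0, 60.3 and 70.9 CPM in asil1-1, against 34.8, 36.3 and 36.3 CPM in Col-0 (0.86 ± 0.14, adjusted p = 0.000388). The other riser was SCA3. The large subunits of RNA polymerase II did not pass the threshold (NRPB1 0.41 ± 0.17, adjusted p = 0.113, and NRPB2 0.31 ± 0.12, adjusted p = 0.0802), nor did NRPC1, the largest subunit of polymerase III (0.37 ± 0.21, adjusted p = 0.244). NRPD1A, of RNA polymerase IV, had 0.05 ± 0.24 (adjusted p = 0.909).

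**Figure D2:**
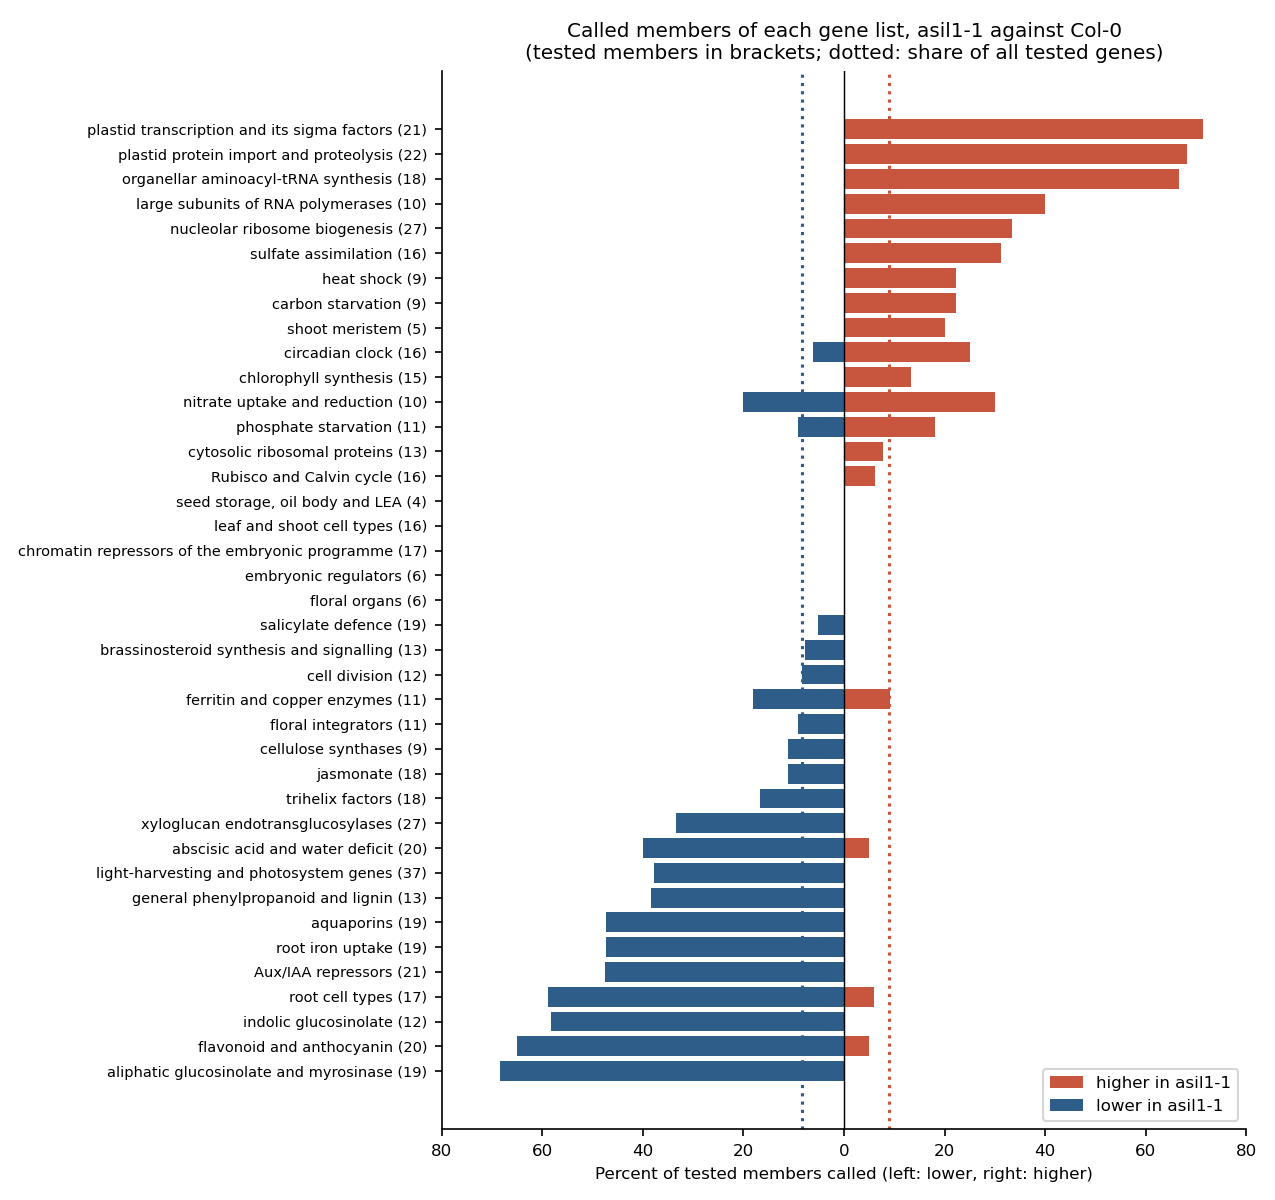
Share of tested members called higher (right) or lower (left) in asil1-1 than in Col-0, in percent, for 39 gene lists, with the number tested in brackets. Dotted lines mark the shares of all tested genes, 8.91% higher and 8.35% lower; the plastid and organellar lists extend farthest to the right, glucosinolate, flavonoid and root lists farthest to the left.

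The increases were checked against the library features. The members of these lists are longer than average, with median exonic lengths between 2044 nt for plastid transcription and 4600 nt for the polymerases, against 1795 nt for all tested genes. After the length correction, where 8.39% of all genes were higher and 8.52% lower, 17 of 21 plastid transcription genes, 9 of 18 aminoacyl-tRNA synthesis genes, 14 of 22 import and proteolysis genes, 6 of 27 nucleolar genes and 4 of 10 polymerase genes were higher, and 0 of any of these lists was lower. Against Col-0 replicate 3 alone the medians of these lists, in the same order, were 0.35, 0.39, 0.33, 0.36 and 0.76. In the main comparison they were 0.41, 0.37, 0.40, 0.29 and 0.42. The fit to replicate 3 alone uses libraries of the main comparison, so its medians were largely set in advance. That fit also has the larger length shift, so it does not check length. With length and root score in the model, 7 of 21 plastid transcription genes, 3 of 18 aminoacyl-tRNA synthesis genes, 1 of 22 import and proteolysis genes, 1 of 27 nucleolar genes and 3 of 10 polymerase genes were higher, and 0 were lower. PDE340, CS26, FTSH12, GATB, PWP2 and NRPC2 were called in both of these fits and with length and root score in the model.

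Sulfate assimilation held another of the clearest increases. CS26, the S-sulfocysteine synthase of the plastid, measured 51.1, 45.3 and 53.0 CPM in asil1-1, against 19.1, 15.8 and 17.1 CPM in Col-0, 2.87-fold higher in asil1-1 (1.52 ± 0.12, adjusted p = 4.87e-08). APR3, an adenylyl-sulfate reductase, measured 264, 253 and 360 CPM in asil1-1, against 137, 132 and 131 CPM in Col-0 (1.13 ± 0.17, adjusted p = 0.000249). The list had 5 of 16 tested members higher and 0 lower. Nitrate genes split: the nitrate reductases NIA1 (0.96 ± 0.18) and NIA2 (0.73 ± 0.18) rose, and the transporters NRT1.1 (-0.71 ± 0.19) and NRT2:1 (-4.18 ± 1.17) fell. Of 16 clock genes 4 rose, among them TOC1 (0.77 ± 0.13) and ELF3 (0.57 ± 0.14), and CCA1, the morning factor, fell (-0.66 ± 0.18). Among called genes with a symbol whose libraries did not overlap, CYP81D11, a cytochrome P450, had the largest increase, with 95.6, 121 and 205 CPM in asil1-1, against 30.6, 25.4 and 41.1 CPM in Col-0 (2.11 ± 0.39, adjusted p = 0.00246). FER2, the seed-type ferritin gene, followed among the lists with 3.48, 2.67 and 3.09 CPM in asil1-1, against 0.722, 0.661 and 1.30 CPM in Col-0 (1.78 ± 0.36, adjusted p = 0.00246). Against Col-0 replicate 3 alone, of these genes only CS26 and APR3 were called.

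CPD fell in the main comparison and in every alternative fit run. It encodes a cytochrome P450 of brassinosteroid synthesis and measured 120, 138 and 131 CPM in asil1-1, against 243, 238 and 345 CPM in Col-0 (-1.09 ± 0.13, adjusted p = 2.05e-05). The libraries did not overlap, and with Col-0 replicate 3 alone the log2 fold change was -1.40 (adjusted p = 3.63e-05). No other of the 13 tested brassinosteroid genes was called. BAS1, which inactivates brassinosteroids, had -0.54 ± 0.20 (adjusted p = 0.0593), and the synthesis gene BR6OX2 0.34 ± 0.16 (adjusted p = 0.136).

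Glucosinolate genes were lower in both branches of the pathway. Of 19 tested aliphatic glucosinolate and myrosinase genes 13 fell and 0 rose, and of 12 indolic genes 7 fell and 0 rose. IMS2, a methylthioalkylmalate synthase that lengthens the side chain, measured 6.80, 6.38 and 4.70 CPM in asil1-1, against 15.3, 19.7 and 14.6 CPM in Col-0 (-1.45 ± 0.18, adjusted p = 2.47e-05). BCAT4, the first enzyme of chain elongation (-0.69 ± 0.13), CYP83A1 (-0.53 ± 0.11) and the sulfotransferase SOT17 (-0.67 ± 0.14) also fell. In the indolic branch UGT74B1 (-0.43 ± 0.11) and the regulator MYB34 (-0.65 ± 0.18) fell. IGMT3, an indole glucosinolate methyltransferase, fell to 2.21, 1.81 and 2.01 CPM in asil1-1, against 12.5, 14.5 and 4.99 CPM in Col-0 (-2.40 ± 0.32, adjusted p = 7.20e-05). Its near-identical neighbour IGMT2 had -2.17 ± 0.33, and reads may be shared between them. The median log2 fold change was -0.52 for the aliphatic and -0.54 for the indolic genes. Against Col-0 replicate 3 alone these medians were -0.43 and -0.47. With the root score in the model they were -0.26 and -0.36. In that model 1 of 19 aliphatic and 1 of 12 indolic genes were lower and 0 higher, and of all genes 0.807% were lower.

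Flavonoid genes fell by more. Of 20 tested members 13 fell and 1 rose, with a median log2 fold change of -1.92. DFR, which commits the pathway to anthocyanins, measured 0.949, 0 and 0.403 CPM in asil1-1, against 14.9, 12.8 and 7.81 CPM in Col-0 (-4.59 ± 0.67, adjusted p = 0.000310). TT4, the chalcone synthase, measured 28.1, 11.4 and 21.6 CPM in asil1-1, against 213, 167 and 122 CPM in Col-0 (-3.03 ± 0.47, adjusted p = 0.000968). LDOX (-3.61 ± 0.55), F3H (-1.90 ± 0.32) and the regulator MYB12 (-2.78 ± 0.50) also fell. CHIL, the chalcone isomerase-like protein, measured 7.51, 5.05 and 4.43 CPM in asil1-1, against 24.9, 24.5 and 18.2 CPM in Col-0. None of these genes overlapped between groups, and Col-0 replicate 3 was the lowest of the Col-0 libraries for DFR, TT4 and CHIL. In the upstream phenylpropanoid pathway 5 of 13 fell, among them PAL1 (-1.12 ± 0.21) and C4H (-0.49 ± 0.13). In the fit to Col-0 replicate 3 alone the median log2 fold change was -1.29 for the flavonoid genes. For the phenylpropanoid genes it was -0.16 in that fit, against -0.27 in the main comparison. With the root score in the model 4 flavonoid genes were lower and the median was -0.77.

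Auxin-response repressors fell too. Of 21 tested Aux/IAA genes 10 fell and 0 rose, with a median of -0.54. With the root score in the model 2 were lower and 0 higher, and the median was -0.42. AXR3 measured 20.4, 14.1 and 15.2 CPM in asil1-1, against 46.4, 44.6 and 36.3 CPM in Col-0 (-1.35 ± 0.17, adjusted p = 4.57e-05). IAA2 measured 50.0, 51.1 and 64.0 CPM in asil1-1, against 75.1, 68.5 and 95.8 CPM in Col-0 (-0.54 ± 0.13, adjusted p = 0.00994). These were the 2 members also lower against Col-0 replicate 3 alone.

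Genes of root iron uptake, water transport and the cell wall also fell in part. Of 19 tested root iron uptake genes 9 fell and 0 rose. IRT1, the iron transporter of the root epidermis, measured 0.395, 0.571 and 1.74 CPM in asil1-1, against 20.1, 35.1 and 14.1 CPM in Col-0 (-4.84 ± 1.16, adjusted p = 0.0120), and FRO2, the ferric reductase, fell by 4.18 ± 1.03. Of 19 aquaporins 9 fell and 0 rose, among them PIP2B (-1.03 ± 0.17) and TIP2;2 (-1.05 ± 0.19). Of 27 xyloglucan endotransglucosylases 9 fell and 0 rose. XTH12 had no count in asil1-1, against 2.89, 2.46 and 0.434 CPM in Col-0, at least 19.6-fold lower when 3 counts are set over the asil1-1 group. In the list of abscisic acid and water deficit responses 8 of 20 fell and 1 rose. ADH1, alcohol dehydrogenase, measured 5.53, 4.19 and 4.16 CPM in asil1-1, against 62.8, 90.1 and 15.2 CPM in Col-0 (-3.58 ± 0.59, adjusted p = 0.00144). Medians of the iron uptake, aquaporin, xyloglucan endotransglucosylase, abscisic acid and root marker lists were -1.53, -0.44, -0.34, -0.64 and -2.25 on the log2 scale. Against Col-0 replicate 3 alone they were, in the same order, -0.18, -0.51, -0.47, -0.22 and -0.92. With the root score in the model 1 iron uptake gene and 3 aquaporins were lower. In the xyloglucan endotransglucosylase and abscisic acid lists 0 were lower, and of all genes 0.807%. The root markers make up that score, so that model cannot test them. EXPA7, a root hair expansin, measured 0.553, 0 and 0.134 CPM in asil1-1, against 5.66, 3.31 and 0.976 CPM in Col-0 (-3.65 ± 0.81, adjusted p = 0.00500). The 1 root marker that rose was SCR (0.53 ± 0.11, adjusted p = 0.00254), a regulator of the root endodermis that leaves also express.

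**Figure D3:**
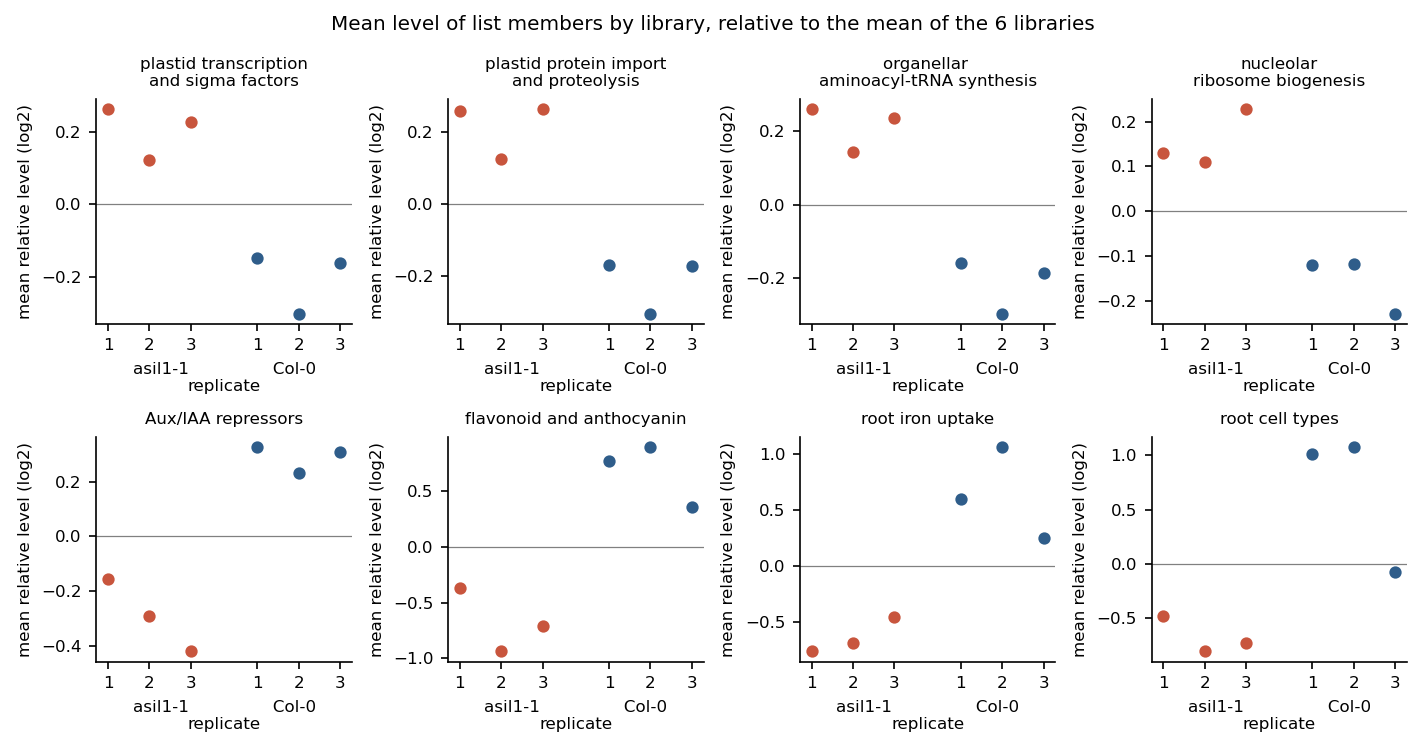
Mean level of the tested members of 8 lists in each library, as log2(CPM + 0.5) relative to the mean of the 6 libraries (y axis), for asil1-1 replicates 1 to 3 (left) and Col-0 replicates 1 to 3 (right). The asil1-1 libraries lie on one side of all Col-0 libraries in each panel, and Col-0 replicate 3 lies nearest to asil1-1 for flavonoid, root iron uptake and root cell type genes.

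The remaining lists held few calls. Of 18 tested trihelix genes 3 fell and 0 rose, namely ASIL1, AT3G54390 (-1.27 ± 0.29) and AT3G10040 (-1.09 ± 0.26), while GT-1, GT2, GTL1 and PTL lay between -0.03 and 0.17. Of 18 jasmonate genes 2 fell, the storage protein genes VSP1 (-1.75 ± 0.44) and VSP2 (-1.91 ± 0.42). Of 19 salicylate defence genes 1 fell. Their summed level was 114, 304 and 127 CPM in asil1-1, against 207, 177 and 158 CPM in Col-0, so asil1-1 replicate 2 lay apart. Heat shock (2 of 9), carbon starvation (2 of 9), phosphate starvation (2 of 11) and shoot meristem genes (1 of 5) included increases. Of 12 cell division genes 1 fell, of 9 cellulose synthases 1 fell, of 11 floral integrators 1 fell, and of 6 floral organ genes 0 passed the threshold. Phosphate starvation had 1 decrease, and ferritin and copper enzymes had 1 increase and 2 decreases among 11.

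Transcripts of the mitochondrial genome were lower in asil1-1, a set looked at after its values were seen. Of 29 tested mitochondrial loci 14 fell and 0 rose, with a median log2 fold change of -1.95, and 27 of 29 lay below 0. The summed level of the 90 listed loci was 27.0, 21.6 and 23.5 CPM in asil1-1, against 51.3, 52.2 and 68.6 CPM in Col-0. In the second pair it was 29.4, 28.2 and 26.7 CPM in asil1-1 asil2-1, against 97.4, 101 and 90.3 CPM in asil2-1, where 18 of 29 loci were lower and 0 higher. The asil1-1 asil2-2 libraries, whose labels name both ecotypes, had 24.4, 16.5 and 22.3 CPM, against 56.1, 66.2 and 79.1 CPM in asil2-2 and 34.4, 34.3 and 39.1 CPM in Ler. All 9 libraries with asil1-1 thus lay below all 12 without it. ATMG00580 had 6, 7 and 6 counts in asil1-1, against 41, 37 and 25 counts in Col-0 (-2.54 ± 0.37, adjusted p = 0.000159). Against Col-0 replicate 3 alone 7 of the 29 were lower. PolyA libraries hold few such transcripts, at most 0.0787% of the counts in the 6 libraries for both organelles together, and copies of mitochondrial sequence in the nuclear genome may share reads. Of 56 tested plastid loci 3 rose and 0 fell.

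**Figure D4:**
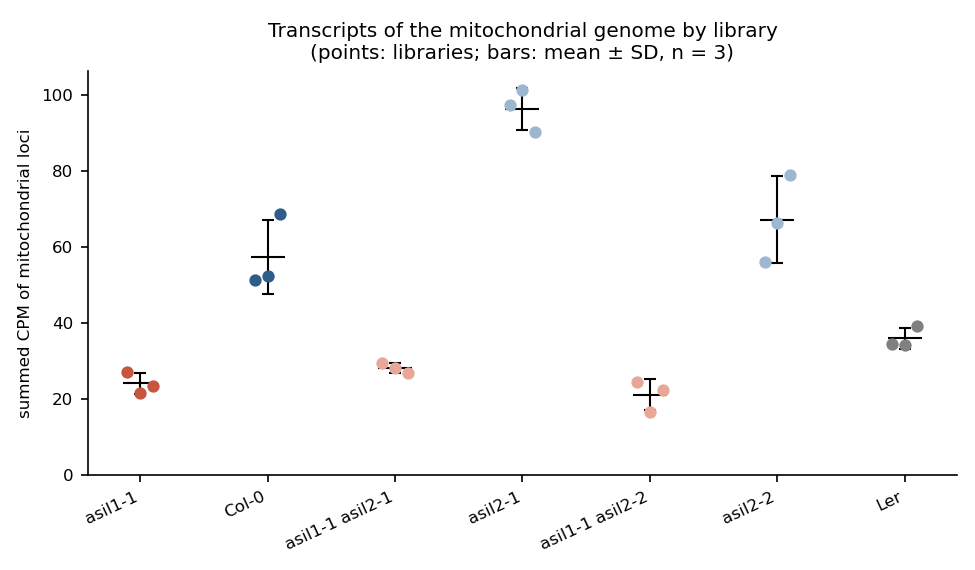
Summed CPM of the 90 listed mitochondrial loci (y axis, from 0) by group (x axis); points are libraries and bars are mean ± SD, n = 3. The asil1-1, asil1-1 asil2-1 and asil1-1 asil2-2 libraries lie between 16.5 and 29.4 CPM, below every other library.

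The second pair shows the asil1-1 allele in other libraries. In asil1-1 asil2-1 against asil2-1, 621 genes (3.17%) were higher and 595 (3.04%) lower. Of the 1746 genes higher in asil1-1 than in Col-0, 304 were also higher there, 17.4% of that list and 49.0% of the 621, and 11 were lower. Of the 1636 genes lower in asil1-1, 76 were also lower there, 4.65% of that list and 12.8% of the 595, and 27 were higher. Of the first list 1174 of 1746 kept their sign, and of the second 901 of 1636. The median log2 fold change in that pair was 0.10 for the first list and -0.06 for the second. For all tested genes it was -0.01.

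Genes of the organelle and nucleolar lists were among those higher in both pairs. PDE340 measured 245, 223 and 251 CPM in asil1-1 asil2-1, against 108, 82.2 and 98.0 CPM in asil2-1 (1.32, adjusted p = 3.02e-07). CS26 measured 65.2, 66.3 and 67.8 CPM in asil1-1 asil2-1, against 18.0, 16.1 and 16.7 CPM in asil2-1 (1.97, adjusted p = 3.92e-10). GATB, FTSH12 and PWP2 had log2 fold changes of 1.18, 1.25 and 1.09 in that pair. MAA3, a nuclear helicase, rose by 0.94 ± 0.11 against Col-0 and by 1.06 in the second pair, and ELP2, a subunit of Elongator, by 0.88 in each. CDC48B rose by 1.32 ± 0.16 and by 1.30. In that pair 4 of the 21 plastid transcription genes, 4 of 18 aminoacyl-tRNA synthesis genes and 3 of 22 import genes were higher. So were 3 of 27 nucleolar genes and 3 of 10 polymerase genes, and 0 members of these lists were lower. The medians of these lists there, in the same order, were 0.14, 0.25, 0.12, 0.09 and 0.06. In the main comparison they were 0.41, 0.37, 0.40, 0.29 and 0.42. In all, 93 genes were higher in both pairs, against Col-0 replicate 3 alone, and with length and root score in the model.

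Decreases shared by both pairs were fewer. CPD measured 178, 189 and 178 CPM in asil1-1 asil2-1, against 281, 258 and 264 CPM in asil2-1 (-0.56, adjusted p = 0.0107). The antenna gene LHCA4 measured 3785, 2981 and 2861 CPM in asil1-1, against 5362, 4878 and 6061 CPM in Col-0 (-0.76 ± 0.17, adjusted p = 0.00580), and fell by 0.73 in the second pair (adjusted p = 0.0125). CAB3, a chlorophyll a/b-binding protein with near-identical copies, fell by 0.95 ± 0.23 and by 1.01. PUB23, a ubiquitin ligase, fell by 1.08 ± 0.21 and by 1.16, and IGMT3 by 2.40 ± 0.32 and by 1.35. Of the 37 light-harvesting and photosystem genes 5 were lower in the second pair. Of the flavonoid, Aux/IAA, aquaporin, root iron uptake and root marker genes 0 were lower there, and of all genes 3.04%. In these lists 1 aquaporin and 1 root iron uptake gene were higher. Of 19 aliphatic glucosinolate and myrosinase genes 4 were higher and 0 lower, with a median of 0.32. Of 12 indolic genes 3 were lower and 0 higher. Only 10 genes were lower in both pairs, against Col-0 replicate 3 alone, and with length and root score in the model. They were ASIL1, CPD, AT2G24550, AT5G56980, AT2G07706 and 5 mitochondrial loci.

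**Figure D5:**
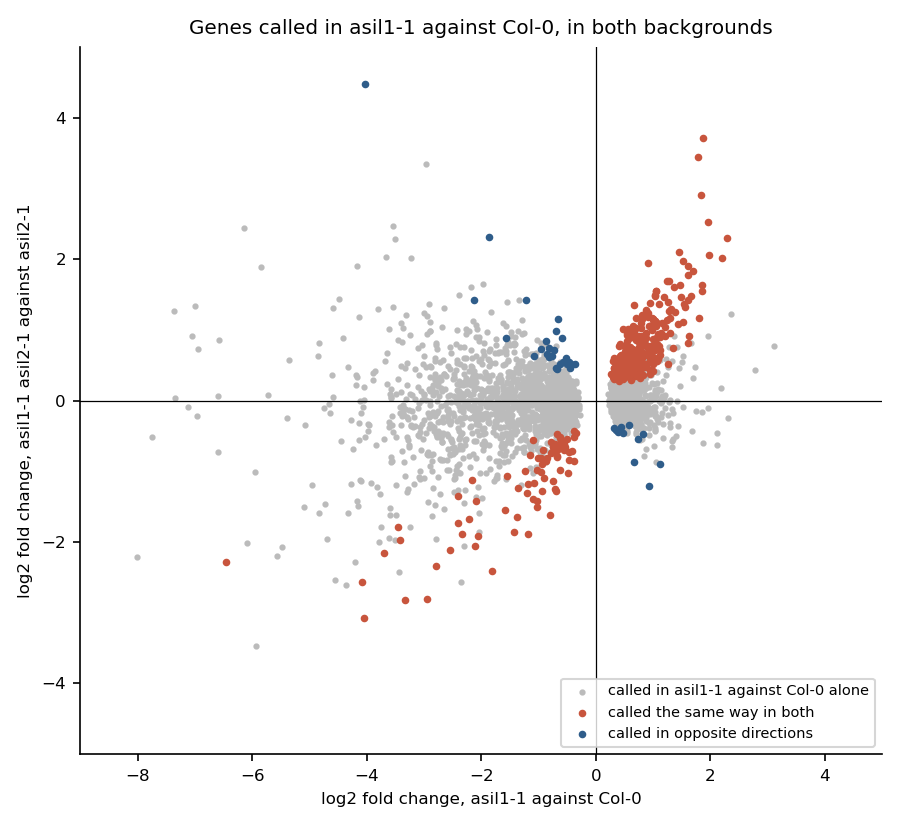
Log2 fold change of the 3382 genes called in asil1-1 against Col-0 (x axis) and in asil1-1 asil2-1 against asil2-1 (y axis); each point is a gene. Genes called the same way in both (304 higher, 76 lower) are red, those called in opposite directions blue, and most decreases scatter around 0 on the y axis.

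The log2 fold change of asil1-1 differed between the pairs for 892 genes, being higher beside asil2-1 for 435 (2.22%) and lower for 457 (2.33%). Of 20 flavonoid genes 11 had a higher value beside asil2-1 and 1 a lower one, and of 19 aliphatic glucosinolate genes 10 had a higher value and 0 a lower one. CHIL measured 15.5, 10.2 and 8.69 CPM in asil1-1 asil2-1, against 4.60, 7.03 and 9.37 CPM in asil2-1, a difference of effects of 2.66 (adjusted p = 0.00218). IMS2 measured 11.6, 6.46 and 7.69 CPM in asil1-1 asil2-1, against 5.23, 7.56 and 6.57 CPM in asil2-1, a difference of 1.83 (adjusted p = 0.00213). In the other direction, the plastid polymerase SCA3 had 75.1, 78.5 and 79.8 CPM in asil1-1 asil2-1, against 99.0, 79.0 and 81.2 CPM in asil2-1, a difference of effects of -0.91 (adjusted p = 0.00497). ASIL2 itself measured 132, 179 and 194 CPM in asil1-1 asil2-1, against 434, 381 and 490 CPM in asil2-1, a difference of -1.88 (adjusted p = 0.00236).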

How the data were processed

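RNA-seq counts of 14-day-old seedlings were analysed. Each deposited file gives raw counts per transcript model, with 1 model for each locus and only loci with a count. TAIR10 and the tools Bowtie 0.12.7 and edgeR 3.0.8 are named in the submitters' processing notes. The sources used here do not give the counting program, the use of strand or the handling of multiply mapping reads. Total counts were 13577815, 11015050 and 8032518 in asil1-1 and 8405844, 10285620 and 10122319 in Col-0. Floors given for 0 counts cover counting error only. Counts were scaled by TMM and fitted in edgeR 4.0.16 (R 4.3.3, robust quasi-likelihood, filterByExpr) to all 21 libraries with a mean for each group, which leaves 14 residual degrees of freedom. P-values were adjusted by Benjamini-Hochberg across the 19589 genes tested and called at 0.05. The SE of a log2 fold change was derived from its quasi-likelihood F statistic. The p values measure the spread between these samples.

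The 39 gene lists hold 676 entries. Of these, 26 were dropped because the gene table does not give the name to the listed locus. Of the other 650, 639 are in the files. Members and lists were chosen with earlier results of these data known, and no set test was run. Named genes are ASIL1 and ASIL2, in each direction the 14 called genes with the smallest p and the 8 with the largest fold change whose libraries do not overlap, up to 5 members of each list by p, all seed, embryo, trihelix and polymerase members, called neighbours of ASIL1 and the top genes shared by, or differing between, both pairs. The text names part of these. Locus names, lengths and promoters come from RefSeq (TAIR10.1).

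For the length correction, the lowess trend of log CPM over log exonic length in each library (span 0.3) was the offset. A library's root score averages its root marker levels on the log2 scale, each centred on its mean over the libraries. Other alternatives were RLE scaling, 2 filters, DESeq2 1.42.0, the compared groups alone, a replicate block, removal of organellar loci, and leaving out each library.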

Additional observations from a re-analysis of the deposited data

Results flagged for a closer look

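For 30 genes named above, the log2 fold change of asil1-1 asil2-1 against asil2-1 minus that of asil1-1 against Col-0 passed the same test across all genes (edgeR's quasi-likelihood test, adjusted p under 0.05). Positive values mean that asil1-1 lowered the gene less, or raised it more, beside asil2-1. Each effect rests on 3 libraries a group.

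Among glucosinolate genes the difference was 1.83 for IMS2, 1.14 for BCAT4, 0.67 for CYP83A1, 0.98 for SOT17, 0.70 for UGT74B1, 0.96 for MYB34 and 1.16 for ESP. Among flavonoid and phenylpropanoid genes it was 2.66 for CHIL, 5.90 for DFR, 4.61 for LDOX, 3.81 for TT4, 2.22 for F3H and 1.21 for PAL1. Other genes that fell in asil1-1 against Col-0 gave 3.74 for ADH1, 4.33 for EXPA7, 2.25 for VSP2, 1.02 for AXR3, 0.83 for PIP2B and 1.46 for AT3G54390. DFR had 0.271, 1.85 and 2.08 CPM in asil2-1, against 14.9, 12.8 and 7.81 CPM in Col-0, and the part of these levels in the difference was not tested.

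Genes that rose against Col-0 and less so, or not, beside asil2-1 were fewer. In the organelle and polymerase lists and among the increases with the smallest p the difference was -0.91 for SCA3, -0.65 for FLN1, -0.63 for PDE312, -0.71 for NRPC2, -0.51 for LETM1 and -0.57 for EMB2785. Nutrient and stress genes gave -1.11 for APR3, -1.15 for NIA1, -1.03 for NIA2 and -2.74 for CYP81D11. ASIL2 gave -1.88.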

How the results depend on the processing

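ASIL1 kept its direction and call in all 17 alternatives. The count of 1746 higher and 1636 lower genes moved by over 1.5 times in 3 alternatives besides those that left out a library. It was 154 higher and 48 lower when Col-0 was represented by replicate 3 alone, 343 and 158 with the root score in the model, and 289 and 123 with length correction and root score together. Leaving out 1 library at a time gave 799 to 1970 higher and 716 to 1937 lower genes. The counts were 918 and 827 without Col-0 replicate 1, 799 and 716 without Col-0 replicate 2, 1129 and 859 without asil1-1 replicate 2, and 819 and 743 without asil1-1 replicate 3. The leave-one-out range of the ASIL1 log2 fold change was -2.83 to -2.74. RLE scaling (1378 and 1794), DESeq2 (1528 and 1997), the other filters, the 2 groups alone and the length correction stayed within 1.5 times.

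Of 80 called genes named above, 36 kept their call with length and root score in the model. All 80 kept their direction against Col-0 replicate 3 alone, which was largely set in advance because that library is in the main comparison. Between 70 and 80 were called when 1 library was left out. The cause of the lost calls was not tested. Col-0 replicate 3 alone leaves fewer libraries for the test.

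Replicate numbers did not pair the samples: the correlations of deviations between same-numbered asil1-1 and Col-0 libraries were 0.16, -0.02 and 0.24. The replicate block gave 1754 higher and 1665 lower genes. It gave 647 and 660 for the second pair and 494 and 588 for the difference of effects. Depth limits the low seed genes. With 3 libraries a group, simulated 2-fold changes were recovered for 78 of 100 genes and 4-fold changes for 96 of 100, with 7 false calls among 181. The changed genes were drawn from those with a mean above 1 CPM, and no root or length shift was simulated. These rates thus do not cover the low seed genes or the false calls of the real comparison.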
